A study of Mus musculus with 30 samples.

Results

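The genes described here are 10 markers of radial glia, neural stem cells and astrocytes: Nes, Vim, Gfap, Prom1, Fabp7, Aldh1l1, Glul, Ptn, S100b and Apoe, out of 18193 gene symbols on the chips used. All 45137 probe sets that are not controls were searched, and every probe set (a group of short oligonucleotides that reports one transcript) whose gene symbol in the platform tables is exactly one of these names was taken, which gave 21. They were followed in mouse neurospheres, balls of proliferating neural precursors that float in culture, which were set up from basal ganglia at embryonic day 14 and kept for 7 days in DMEM:F12 medium (N2 supplement, 2% B27). All 15 RNA samples were measured on the Affymetrix chips MOE430A and MOE430B, 30 arrays in all. The EGF condition (6 samples) used cells of the medial and lateral ganglionic eminences grown with epidermal growth factor. The PDGF+NT-3 condition (3 samples) used cells of the anterior entopeduncular area grown with PDGF-AA and neurotrophin-3, both labelled as 100 ng/ul, and this unit could not be checked. The PDGF condition (6 samples) used cells of the same area grown with PDGF-AA at 100 ng/ml.

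No sample of any condition is labelled with a transgene, a deletion or a sorted cell type, and the neurospheres can hold several cell types. The labels do not say whether replicates were separate cultures or how many embryos were pooled, so the p-values here reflect only how far these samples differ from each other, which may be technical. For the samples with NT-3 the labels give purity as unknown. They also give each of them a higher RNA concentration than the single value given for all EGF and PDGF samples. This difference cannot be told apart from NT-3. For the EGF samples the labels disagree: the growth protocol has PDGF-AA, whereas title, description and the text on purification have EGF, which is followed here. Growth factor and brain region differ together between EGF and the other conditions, so their parts cannot be told apart. Markers of neural precursors were bright in all conditions: the probe sets chosen for Nes and Vim lay at or above the array median in all 15 samples.

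Radial glia are the elongated stem cells that line the ventricles of the embryonic brain, and they give rise to neurons and later to astrocytes, ependymal cells and adult neural stem cells. They build their processes from the intermediate filament proteins nestin and vimentin, carry prominin on their apical surface, and contain the brain lipid-binding protein Fabp7. As they turn into astrocytes they gain Gfap, the folate enzyme Aldh1l1, glutamine synthetase (Glul), the calcium-binding protein S100b and the lipid carrier Apoe. Oligodendrocyte progenitors, which PDGF-AA maintains, share some of these markers, among them nestin, vimentin and S100b.

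RefSeq promoter windows on build GRCm38.p6, from 250 bases before to 50 after a transcript start, were found for all 10 genes (13 windows, since Prom1 has 2 starts and Apoe has 3). Of these, 4 are shown because their genes carry the results below: Aldh1l1 and Prom1 had the largest increases with EGF, S100b was the one marker that fell with EGF, and Vim rose with NT-3 by every probe set. The Aldh1l1 window is chr6:90550543-90550842 on the plus strand, and the Prom1 window, that of its outermost start, is chr5:44101687-44101986 on the minus strand. The S100b window is chr10:76253586-76253885 and the Vim window chr2:13574061-13574360, both on the plus strand. Capitals mark matches to the motifs named after the sequences, and each sequence runs 5′ to 3′ along the gene.
Aldh1l1: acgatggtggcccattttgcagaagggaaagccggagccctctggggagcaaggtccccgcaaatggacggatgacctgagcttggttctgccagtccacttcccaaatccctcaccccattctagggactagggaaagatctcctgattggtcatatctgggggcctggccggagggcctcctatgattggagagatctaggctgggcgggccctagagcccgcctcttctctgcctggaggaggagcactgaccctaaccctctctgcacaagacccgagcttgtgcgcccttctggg
Prom1: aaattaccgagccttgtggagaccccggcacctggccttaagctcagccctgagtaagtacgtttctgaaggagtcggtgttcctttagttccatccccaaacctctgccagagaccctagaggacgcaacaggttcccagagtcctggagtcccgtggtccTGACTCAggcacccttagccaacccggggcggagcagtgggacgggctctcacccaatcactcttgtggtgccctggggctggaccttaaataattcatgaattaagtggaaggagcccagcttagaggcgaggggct
S100b: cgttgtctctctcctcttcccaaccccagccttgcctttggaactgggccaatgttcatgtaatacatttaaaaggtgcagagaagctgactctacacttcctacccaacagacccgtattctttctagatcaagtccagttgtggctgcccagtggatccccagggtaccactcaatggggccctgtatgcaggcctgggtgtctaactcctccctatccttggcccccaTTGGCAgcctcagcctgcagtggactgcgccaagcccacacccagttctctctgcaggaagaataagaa
Vim: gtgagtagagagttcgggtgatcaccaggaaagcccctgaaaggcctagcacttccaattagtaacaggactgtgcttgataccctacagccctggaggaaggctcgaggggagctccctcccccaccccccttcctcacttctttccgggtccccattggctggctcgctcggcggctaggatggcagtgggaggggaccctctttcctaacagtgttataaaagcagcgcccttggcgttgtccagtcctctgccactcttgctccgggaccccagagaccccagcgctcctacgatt
On both strands 4 motifs were searched: GTGGGAA (Rbpj, the Notch effector), TTCNNNGAA (Stat), TGANTCA (AP-1) and TTGGCA (nuclear factor I). The AP-1 letters stand in both Prom1 windows, and 7.81% of all 32851 windows in the table hold them. The nuclear factor I letters stand in the S100b window and in 1 of 3 Apoe windows (14.1% of all windows), and the Stat letters in the Gfap window (8.3% of all windows). The Rbpj letters, held by 6.38% of all windows, stand in 0 of the 13. A match is a description of the letters and does not show binding, and an absent match says only that the letters are not in this window.

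Signals are MAS5 values on a linear scale, brought by the authors to a common trimmed mean on every array. A probe set was tested when its signal reached the array median on at least 3 of 15 arrays, which 17 of the 21 marker probe sets did, and they cover all 10 genes. The other 4 (1 of Nes, 1 of Aldh1l1 and 2 of Gfap) are described without a test. Differences are given on the log2 scale of signal plus a small pseudocount, with the standard error of limma's fit over all 15 samples, and adjusted p-values run over all 29796 probe sets tested. Where a gene has several probe sets, the gene is counted by 1 of those tested, the brightest on MOE430A where a tested one is on that chip. The number of arrays limits the precision. Hybridisation runs were inferred from the recorded station and time of each array. Arrays of the same chip type on the same fluidics station, with gaps of at most 15 minutes, were taken as a run. By this rule EGF and PDGF samples fell into 3 runs with 2 samples of each condition in each. The samples with NT-3 share no run with the others, so hybridisation and NT-3 cannot be told apart. The replicates with NT-3 also correlated less with each other (median Pearson's r across probe sets 0.81) than the EGF (0.86) or PDGF (0.86) replicates. The comparisons share samples, so the values of one comparison are not independent of those of the next.

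EGF neurospheres carried more RNA of most of the markers than PDGF neurospheres, and the increases were largest for the astrocyte enzyme Aldh1l1, for Prom1 and for Apoe. S100b went the other way, and Vim, Fabp7 and Gfap did not pass the test. Counted by gene, 6 of 10 rose (Aldh1l1, Prom1, Apoe, Glul, Ptn and Nes) and 1 fell, where 5.61% of the 13882 genes tested rose and 5.55% fell. The other tested probe sets of Glul, Ptn and S100b did not pass, as given with those genes below. The median log2 difference of the 10 genes was 0.75, against −0.04 over all genes. By probe set, 7 of 17 rose and 1 fell, where 4.39% of all probe sets tested rose and 4.04% fell, and EGF and PDGF samples did not overlap for 7 of the 17 (6.31% of all). In these bulk samples more cells that express a gene and more RNA per cell cannot be told apart.

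PDGF+NT-3 neurospheres differed from PDGF neurospheres in another set of values: Vim and Fabp7 rose, and the chosen probe sets of Nes and Ptn fell. Counted by gene, 2 of 10 rose and 2 fell, where 6.55% of all genes rose and 12.4% fell. The median of the 10 genes was −0.53, against −0.13 over all genes. By probe set, 4 of 17 rose and 2 fell, where 6.33% of all probe sets rose and 10.8% fell, and 8 of 17 did not overlap (17.6% of all). Other probe sets of Nes and Ptn did not pass, as given with those genes below.

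Between EGF and PDGF+NT-3 neurospheres, Aldh1l1, Prom1, Ptn, Nes and Glul were higher with EGF by the probe sets that stand for them, and Vim was lower. The other tested probe sets of Nes, Ptn and Glul did not pass. Thus 5 of 10 genes were higher and 1 lower, where 12.7% of all genes were higher and 7.46% lower. The median of the 10 genes was 1.40, against 0.11 over all genes. By probe set, 5 of 17 were higher and 3 lower, where 11% of all probe sets were higher and 6.91% lower, and 10 of 17 did not overlap (18.7% of all).

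**Figure D1:**
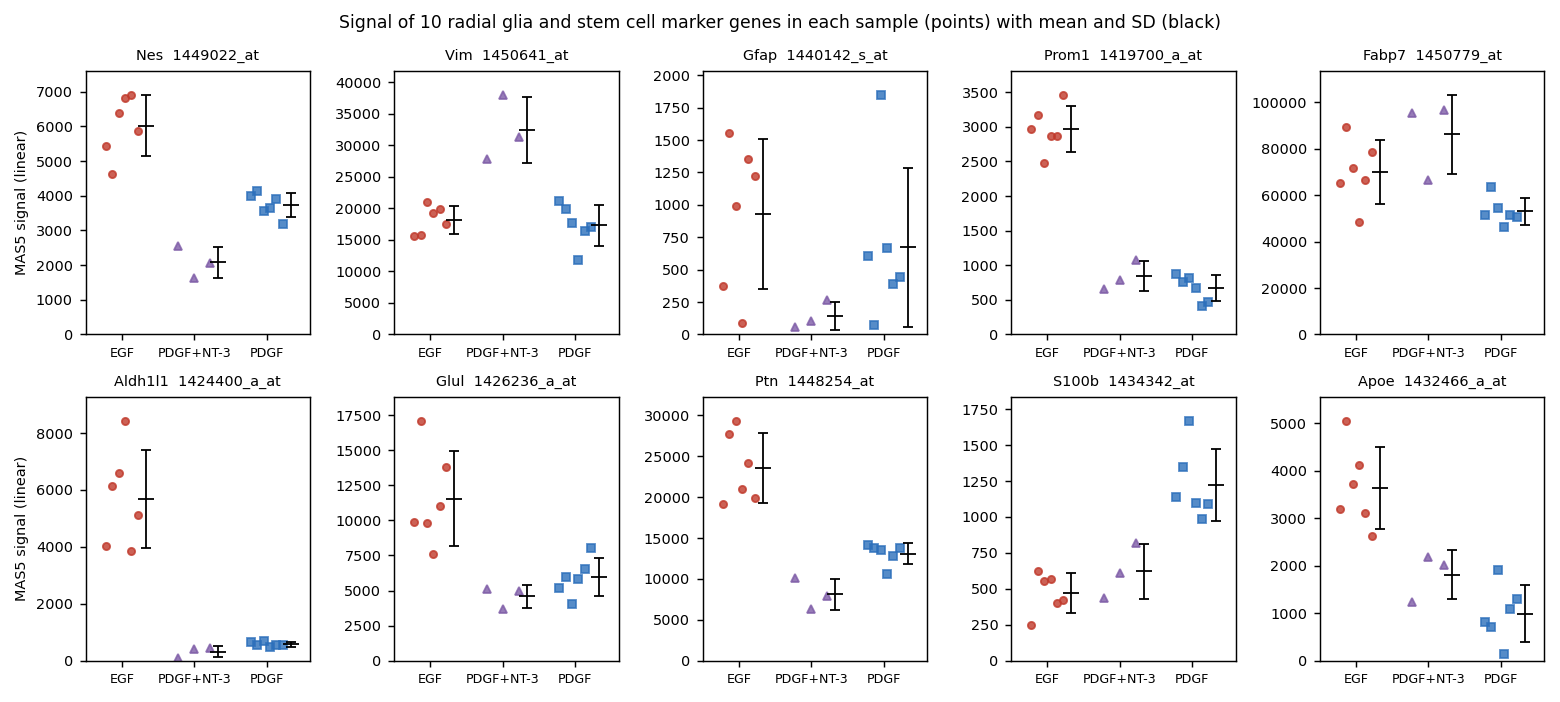
MAS5 signal (linear scale from 0) of the probe set that stands for each of the 10 genes, in each of 6 EGF, 3 PDGF+NT-3 and 6 PDGF samples (points, in replicate order), with the mean and SD of each condition in black. The EGF samples of Aldh1l1 lie between 3843 and 8427, above all samples of the other conditions, while for Vim the PDGF+NT-3 samples lie highest.

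**Figure D2:**
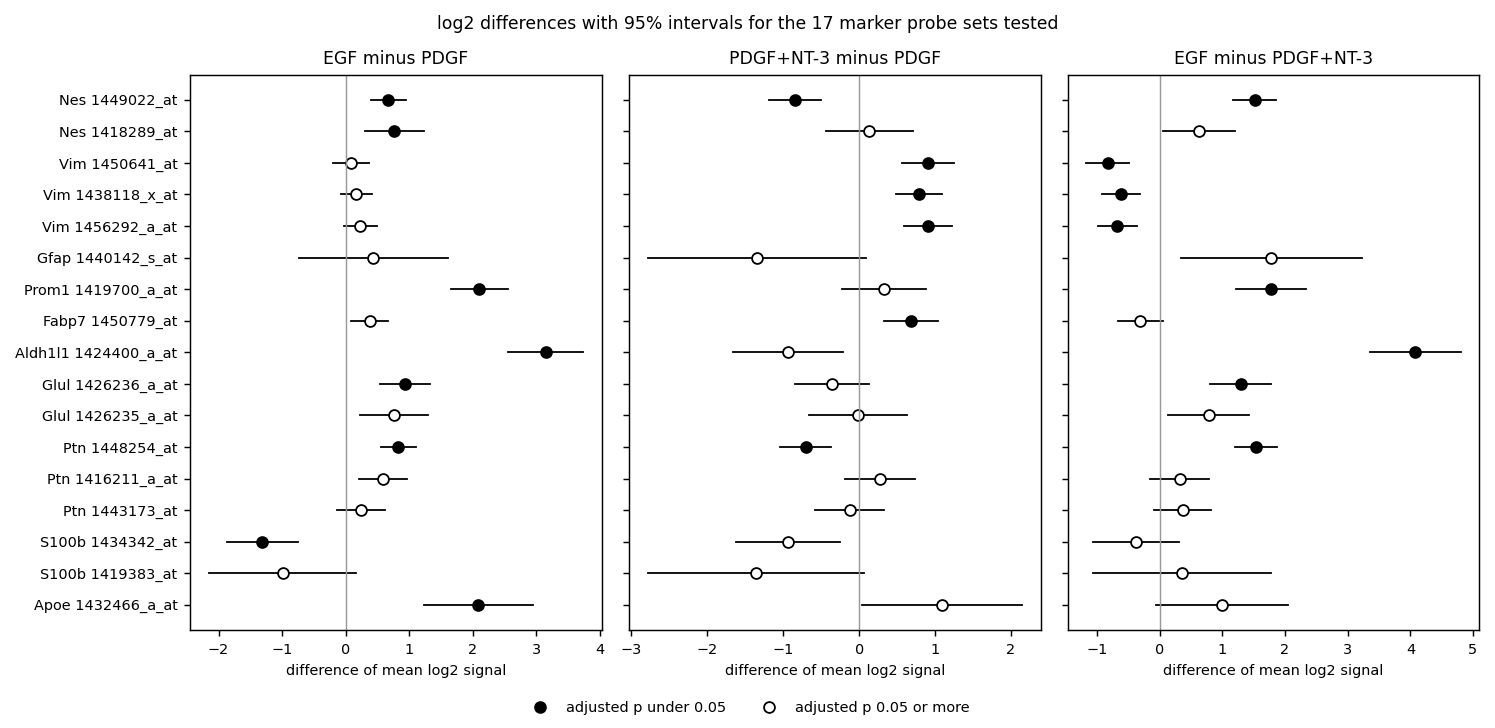
Difference of mean log2 signal (points) with 95% intervals (lines) for the 17 marker probe sets tested, for EGF minus PDGF (left), PDGF+NT-3 minus PDGF (middle) and EGF minus PDGF+NT-3 (right). Filled points have an adjusted p under 0.05; EGF minus PDGF has 7 filled points above 0 and 1 below.

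Among the filament proteins, nestin (Nes), the filament of dividing neural precursors, had signals of 4642 at the lowest, 6142 at the median and 6919 at the highest in EGF, 2547, 1640 and 2054 in the 3 PDGF+NT-3 samples, and 3193, 3776 and 4127 (lowest, median and highest) in PDGF by probe set 1449022_at. The conditions did not overlap, in the order EGF, PDGF, PDGF+NT-3. EGF was higher than PDGF by 0.67 ± 0.13 (adjusted p = 0.00297) and PDGF+NT-3 was lower than PDGF, at −0.85 ± 0.16 (adjusted p = 0.00226). EGF exceeded PDGF+NT-3 by 1.52 ± 0.16 (adjusted p = 8.40e-06).

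A further Nes probe set, 1418289_at, gave 2699, 3389 and 5465 (lowest, median and highest) in EGF, 2652, 1679 and 2483 in PDGF+NT-3, and 1403, 2008 and 3096 in PDGF. Here EGF again lay above PDGF, though with overlap (0.77 ± 0.22, adjusted p = 0.0398), a call that was lost in 10 of 27 other settings. PDGF+NT-3 and PDGF overlapped, with a difference of 0.13 whose 95% interval was −0.44 to 0.71 (adjusted p = 0.782). So the fall of Nes with NT-3 was seen by 1 of 2 tested probe sets. With the mean of both in their place it did not pass (−0.36, adjusted p = 0.163). EGF minus PDGF+NT-3 by 1418289_at was 0.63 ± 0.27 and did not pass (adjusted p = 0.120), though the 2 conditions did not overlap. The remaining Nes probe set, 1453997_a_at, stayed under the array median in all 15 samples and was not tested.

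Vimentin (Vim), the filament that radial glia share with many mesenchymal cells, behaved alike by all 3 of its probe sets. The chosen one, 1450641_at, had signals of 15603, 18437 and 20989.6 (lowest, median and highest) in EGF, 27825, 38075 and 31382 in PDGF+NT-3, and 11788, 17412 and 21134 in PDGF. The PDGF+NT-3 samples lay above every other sample, and EGF and PDGF overlapped. PDGF+NT-3 was higher than PDGF by 0.91 ± 0.16 (adjusted p = 0.00132), and the other probe sets gave 0.79 ± 0.14 (1438118_x_at, adjusted p = 0.00145) and 0.91 ± 0.15 (1456292_a_at, adjusted p = 0.000778). EGF was lower than PDGF+NT-3 by all 3, at −0.83, −0.62 and −0.68 (adjusted p = 0.00192, 0.00591 and 0.00471). Between EGF and PDGF the difference was 0.08, with a 95% interval of −0.20 to 0.36 (adjusted p = 0.828), and the other probe sets gave 0.17 and 0.23 without passing.

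Gfap, the filament protein of astrocytes, was dim. By the chosen probe set, 1440142_s_at on MOE430B, signals were 87.9, 1105 and 1552 (lowest, median and highest) in EGF, 61.1, 105 and 262 in PDGF+NT-3, and 72.6, 523 and 1851 in PDGF. Signals reached the array median in 4 of 6 EGF, 0 of 3 PDGF+NT-3 and 1 of 6 PDGF samples, and EGF and PDGF covered much the same range. No comparison passed: EGF minus PDGF was 0.44 ± 0.56 (95% interval −0.74 to 1.61, adjusted p = 0.773), PDGF+NT-3 minus PDGF was −1.35 ± 0.68 (adjusted p = 0.188), and EGF minus PDGF+NT-3 was 1.78 ± 0.68 (adjusted p = 0.0819). Without EGF replicate 4, the dimmest EGF sample, this last difference was 2.19 and passed (adjusted p = 0.0196). The other 2 Gfap probe sets reached the array median in 2 (1426508_at) and 1 (1426509_s_at) of the 15 samples and were not tested.

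Among the surface and lipid-binding markers, prominin (Prom1), a glycoprotein of membrane protrusions by which neural stem cells are often isolated, is read by 1 probe set. Its signals were 2481, 2923 and 3466 (lowest, median and highest) in EGF, 660.0, 790 and 1079 in PDGF+NT-3, and 417, 721 and 877 in PDGF. Every EGF sample was above every other sample, and PDGF+NT-3 and PDGF overlapped. EGF was 4.30-fold higher than PDGF (2.11 ± 0.21, adjusted p = 4.28e-06) and 3.42-fold higher than PDGF+NT-3 (1.78 ± 0.26, adjusted p = 0.000192). PDGF+NT-3 minus PDGF was 0.33, with a 95% interval of −0.22 to 0.88 (adjusted p = 0.421).

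Fabp7, the brain lipid-binding protein of radial glia, gave the brightest marker signal in relation to its own chip, at the 99.6th percentile of MOE430A. Signals were 48581, 69076 and 89205 (lowest, median and highest) in EGF, 95382, 66715 and 96931 in PDGF+NT-3, and 46317, 51543 and 63733 in PDGF. All 3 PDGF+NT-3 samples exceeded all PDGF samples, replicate 2 only narrowly, while EGF overlapped with both. PDGF+NT-3 was higher than PDGF by 0.69 ± 0.17 (adjusted p = 0.0105). That call did not hold with quantile normalization (0.28, adjusted p = 0.218) or without PDGF+NT-3 replicate 1 or 3 (0.61 and 0.59, adjusted p = 0.0554 and 0.0566). EGF minus PDGF was 0.38 ± 0.14 (95% interval 0.09 to 0.67, adjusted p = 0.114), which passed with quantile normalization (0.46, adjusted p = 0.0251) and without EGF replicate 4 (0.48, adjusted p = 0.0203). EGF minus PDGF+NT-3 was −0.31, with an interval of −0.67 to 0.05 (adjusted p = 0.229), and its sign turned with quantile normalization (0.18).

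Among the metabolic enzymes, Aldh1l1, a cytosolic folate dehydrogenase widely used to label astrocytes, differed most of all markers in EGF against either other condition. By 1424400_a_at its signals were 3843, 5628 and 8427 (lowest, median and highest) in EGF, 101, 396 and 461 in PDGF+NT-3, and 485, 543 and 696 in PDGF. The EGF samples lay far above the rest, and the PDGF+NT-3 samples all lay under the PDGF samples. EGF was 8.85-fold higher than PDGF (3.15 ± 0.28, adjusted p = 1.10e-06) and 16.9-fold higher than PDGF+NT-3 (4.08 ± 0.34, adjusted p = 5.89e-07). PDGF+NT-3 minus PDGF was −0.93 ± 0.34 and did not pass (adjusted p = 0.0713), though it did with each chip adjusted alone (adjusted p = 0.0273) and without PDGF+NT-3 replicate 3 (−1.25, adjusted p = 0.0335). Without PDGF+NT-3 replicate 1, the lowest sample, it was −0.38 (adjusted p = 0.418). Signals reached the array median in 6 of 6 EGF, 0 of 3 PDGF+NT-3 and 3 of 6 PDGF samples.

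The other Aldh1l1 probe set, 1424401_at, did not follow it: its signals were 27.2, 78.7 and 313 (lowest, median and highest) in EGF, 366, 113 and 333 in PDGF+NT-3, and 37.0, 341 and 768 in PDGF. It reached the array median in 1 of 15 samples and was not tested, and its correlation with the first probe set over the 15 samples was −0.52.

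Glul encodes glutamine synthetase, with which astrocytes turn glutamate into glutamine. By 1426236_a_at its signals were 7611, 10452 and 17088 (lowest, median and highest) in EGF, 5143, 3653 and 4943 in PDGF+NT-3, and 4037, 5909 and 8055 in PDGF. EGF lay above all PDGF+NT-3 samples and above all PDGF samples but replicate 6, whose signal exceeded the lowest EGF sample. EGF was 1.91-fold higher than PDGF (0.93 ± 0.19, adjusted p = 0.00319) and 2.45-fold higher than PDGF+NT-3 (1.29 ± 0.23, adjusted p = 0.000869). PDGF+NT-3 minus PDGF was −0.36, with a 95% interval of −0.84 to 0.12 (adjusted p = 0.304). The dimmer Glul probe set, 1426235_a_at, gave 0.76 ± 0.25 for EGF minus PDGF and 0.78 ± 0.31 for EGF minus PDGF+NT-3, which did not pass (adjusted p = 0.0757 and 0.0912).

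Among the secreted proteins, pleiotrophin (Ptn), a heparin-binding growth factor made by radial glia, had signals of 19108, 22571 and 29310 (lowest, median and highest) in EGF, 10100.1, 6302 and 7932 in PDGF+NT-3, and 10603, 13617 and 14149 in PDGF by 1448254_at. The conditions did not overlap, in the order EGF, PDGF, PDGF+NT-3, as for the first Nes probe set. EGF was 1.78-fold higher than PDGF (0.83 ± 0.13, adjusted p = 0.000449) and 2.90-fold higher than PDGF+NT-3 (1.54 ± 0.16, adjusted p = 6.91e-06). PDGF+NT-3 was lower than PDGF, at −0.71 ± 0.16 (adjusted p = 0.00699).

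As for Nes, the other Ptn probe sets did not show that fall. PDGF+NT-3 minus PDGF was 0.27 (95% interval −0.19 to 0.74) by 1416211_a_at and −0.12 (−0.58 to 0.33) by 1443173_at on MOE430B, with adjusted p of 0.424 and 0.739. The mean of the 3 probe sets gave −0.22 (adjusted p = 0.381). For EGF minus PDGF they gave 0.59 ± 0.18 (adjusted p = 0.0512) and 0.24 ± 0.18 (adjusted p = 0.533), and the first of these passed in 9 of 27 other settings. EGF minus PDGF+NT-3 was 0.32 (95% interval −0.15 to 0.78, adjusted p = 0.351) by 1416211_a_at and 0.36 (−0.09 to 0.82, adjusted p = 0.263) by 1443173_at. RNA quality was read as the log2 ratio of the 3′ over the 5′ probe set of the Actb and Gapdh controls. Its median was highest in PDGF+NT-3 for both controls on both chips, but the range overlapped that of PDGF except for Gapdh on MOE430B. On MOE430A, Actb was 3.21 to 3.70 in PDGF+NT-3, 2.42 to 3.42 in EGF and 2.58 to 3.27 in PDGF. Gapdh there was 3.52 to 4.38 in PDGF+NT-3, 3.62 to 4.01 in EGF and 3.65 to 4.12 in PDGF. The part of RNA quality in the disagreement between probe sets was not tested.

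**Figure D3:**
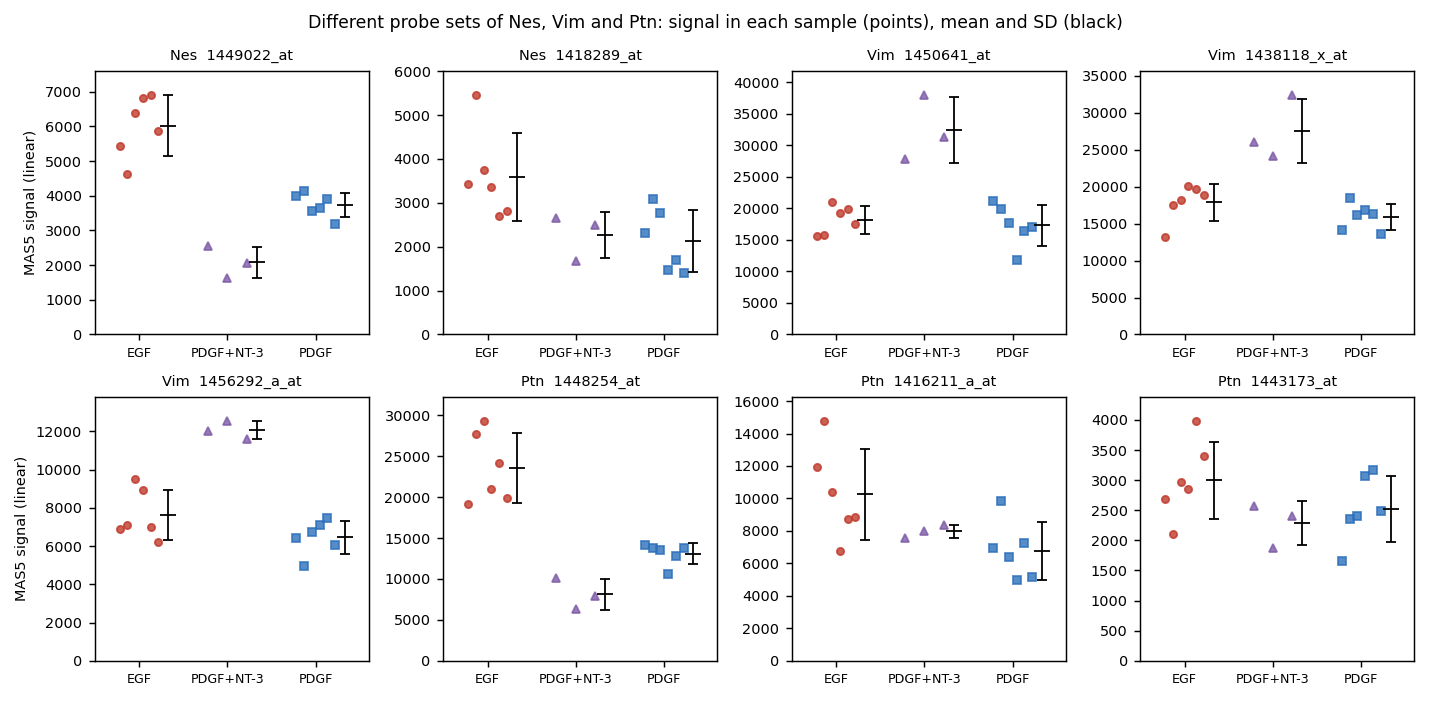
MAS5 signal (linear scale from 0) of the 2 tested Nes, 3 Vim and 3 tested Ptn probe sets in each sample (points), with the mean and SD of each condition in black. The 3 Vim probe sets place the PDGF+NT-3 samples highest, while all PDGF+NT-3 samples lie under all PDGF samples for 1 of 2 Nes and 1 of 3 Ptn probe sets.

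S100b, a calcium-binding protein of astrocytes that cells of the oligodendrocyte lineage also make, was the marker lower in EGF than in PDGF. By 1434342_at its signals were 250, 490 and 622 (lowest, median and highest) in EGF, 435, 607 and 822 in PDGF+NT-3, and 983, 1118 and 1668 in PDGF. PDGF samples lay above all others, and EGF and PDGF+NT-3 overlapped. These signals reached the array median in 1 of 6 EGF, 2 of 3 PDGF+NT-3 and 6 of 6 PDGF samples. EGF was 2.48-fold lower than PDGF (−1.31 ± 0.27, adjusted p = 0.0036). PDGF+NT-3 minus PDGF was −0.94 ± 0.33 and did not pass (adjusted p = 0.0574), though it passed in 5 of 27 other settings, among them testing 1 probe set per gene (adjusted p = 0.0365). EGF minus PDGF+NT-3 was −0.38, with a 95% interval of −1.06 to 0.31 (adjusted p = 0.465). The dimmer probe set 1419383_at varied widely within each condition and passed in no comparison, with EGF minus PDGF at −0.99 (95% interval −2.16 to 0.17, adjusted p = 0.362).

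Apoe, the lipid carrier that astrocytes release, is read by 1 probe set. Its signals were 2633, 3454 and 5047 (lowest, median and highest) in EGF, 1228, 2193 and 2015 in PDGF+NT-3, and 135, 950 and 1908 in PDGF. EGF lay above all other samples, and PDGF+NT-3 and PDGF overlapped. EGF was 4.25-fold higher than PDGF (2.09 ± 0.41, adjusted p = 0.00257). Without any 1 sample this log2 difference was 1.65 to 2.33, lowest without PDGF replicate 4. PDGF+NT-3 minus PDGF was 1.09 ± 0.50 (95% interval 0.04 to 2.15, adjusted p = 0.142) and EGF minus PDGF+NT-3 0.99 ± 0.50 (−0.06 to 2.05, adjusted p = 0.184), so the place of PDGF+NT-3 between the other conditions did not pass on either side. PDGF replicate 4 was the sample at 135. Without it EGF minus PDGF+NT-3 kept its size (0.99) and passed (adjusted p = 0.0281).

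Within each of the 3 inferred hybridisation runs, which hold 2 EGF and 2 PDGF samples each, the increases with EGF kept their sign. For all called genes but Glul, EGF and PDGF samples did not overlap. The sign within a run was therefore fixed beforehand for these genes, and only its size is described. EGF minus PDGF was 2.92 to 3.57 for Aldh1l1, 1.77 to 2.71 for Prom1, 1.24 to 2.71 for Apoe, 0.76 to 1.21 for Glul, 0.72 to 1.05 for Ptn and 0.31 to 0.87 for Nes. S100b was −1.52 to −1.19 in the 3 runs. Of the genes that did not pass, Fabp7 was 0.23 to 0.50 while Vim (−0.38 to 0.48) and Gfap (−1.39 to 1.41) had both signs. No difference within runs can be given for PDGF+NT-3, whose samples share no run with the others.

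**Figure D4:**
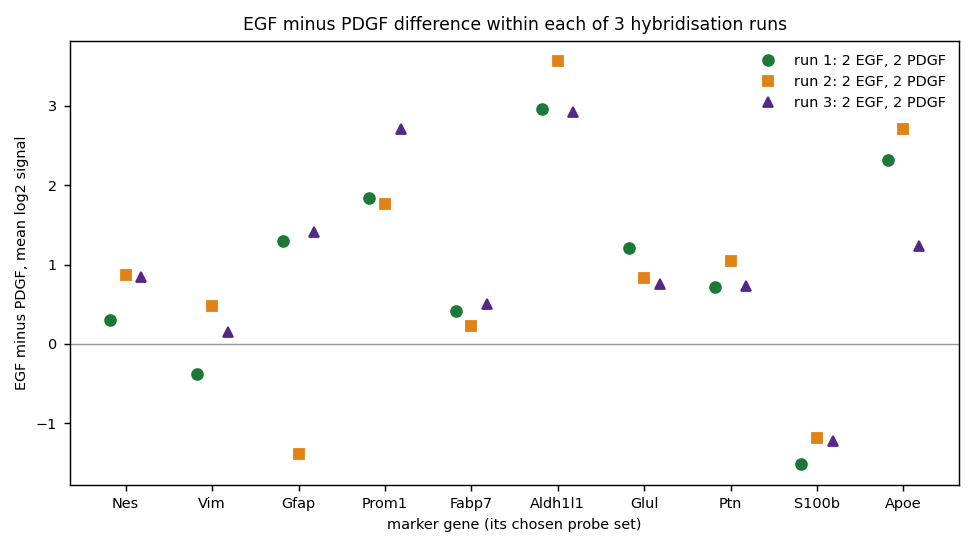
EGF minus PDGF difference of mean log2 signal for the probe set of each marker gene within each of 3 inferred hybridisation runs (symbols), with 2 EGF and 2 PDGF samples per run. Aldh1l1 lies at 2.92 to 3.57 and S100b at −1.52 to −1.19 in the 3 runs, while Vim and Gfap fall on both sides of 0.

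Over the 15 samples, which share 3 conditions and so are not independent points, the markers fell into several patterns. Log2 signals of Nes, Ptn, Aldh1l1 and Glul went together (Pearson's r of 0.92 for Nes and Ptn, 0.86 for Aldh1l1 and Ptn, 0.79 for Aldh1l1 and Glul), and Prom1 went with Aldh1l1 (0.91). Vim ran opposite to Nes (−0.61) and had its highest value with Fabp7 (0.50). S100b was negative with all markers but Gfap (0.05), lowest with Prom1 (−0.69). Between probe sets of 1 gene, r was 0.73 to 0.75 for Vim, 0.58 for Glul, 0.52 for the tested Nes sets, 0.37 for S100b and −0.06 to 0.49 for Ptn.

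**Figure D5:**
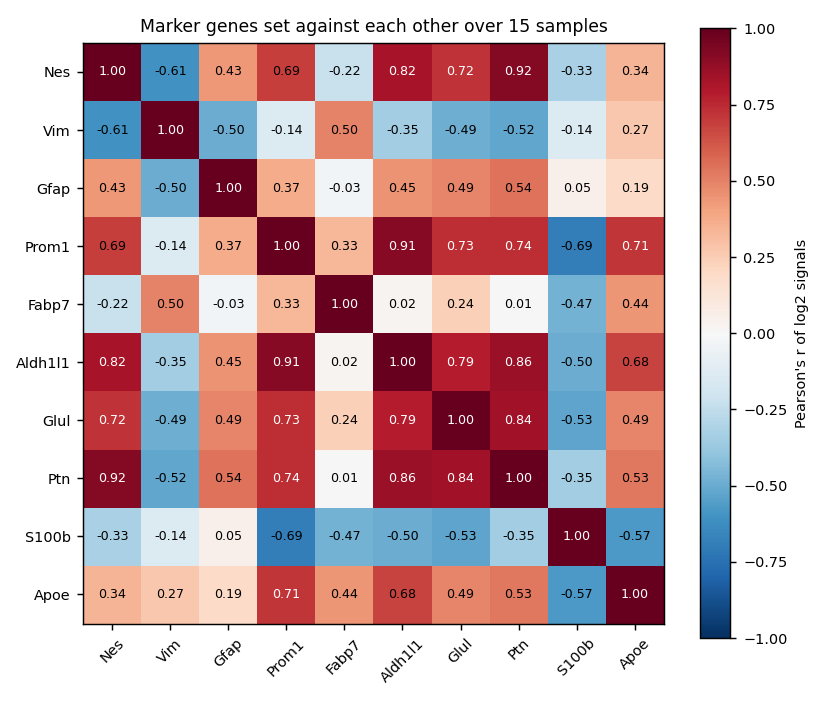
Pearson's r of log2 signals for each pair of the 10 marker genes over 15 samples (6 EGF, 3 PDGF+NT-3, 6 PDGF), coloured from −1 (blue) to 1 (red), as a description without a test. Nes and Ptn reach 0.92 and Aldh1l1 and Prom1 0.91, while Vim and Nes lie at −0.61.

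By the same measure the genes whose signals ran most like each marker's were found among all genes tested (the 2 highest r over 15 samples, which share their conditions). For Aldh1l1 they were Tnc, a matrix protein of radial glia (0.97), and Id3, an inhibitor of helix-loop-helix factors (0.96), and for Prom1 the astrocyte membrane protein Mlc1 (0.97) and the lysosomal protease Ctsc (0.97). For Fabp7 they were the DNA repair gene Rad54l (0.91) and the mitotic regulator Cdc20 (0.91), and for Vim the kinetochore gene Kntc1 (0.92) and the poly(A)-binding protein Pabpc1 (0.91). For Nes they were the myosin Myo18a (0.96) and Fam81a (0.94), and for Ptn the mitochondrial genes Sfxn5 (0.95) and Hadhb (0.94). S100b ran most like the glutamate transporter Slc1a1 (0.90) and the receptor kinase Kit (0.87), and Apoe like the plasminogen activator Plat (0.90) and Iars2 (0.88). Glul was followed by Mrpl51 and Mid1ip1 (0.92 each), and Gfap by Ctage5 (0.87) and Ckap4 (0.84).

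Other genes of the same cells were read from lists without the 10 markers. Over all genes tested, 5.61% rose and 5.55% fell in EGF against PDGF, and 6.55% rose and 12.4% fell in PDGF+NT-3 against PDGF. The counts of every list below are to be set beside these shares, and in short lists counts of 1 or 2 genes can lie near them. Of 20 further radial glia and stem cell genes tested, 5 rose in EGF against PDGF, and the other 15 did not pass (median 0.36, against −0.04 over all genes). They were Mt3, a brain metallothionein (3.45 ± 0.25, adjusted p = 9.68e-08), the glutamate transporter Slc1a3 (2.42 ± 0.17), Tnc (1.47 ± 0.20), the Notch target Hes1 (adjusted p = 0.0127) and Sox3 (0.75 ± 0.19). In PDGF+NT-3 against PDGF, 6 of the 20 rose and 2 fell (median −0.19, against −0.13 over all genes). The share that fell is near the 12.4% of all genes. The 6 were Slc1a3 (1.09 ± 0.20), the receptor Notch1 (1.30 ± 0.26), its targets Hes1 (1.25 ± 0.29) and Hes5 (1.43 ± 0.34), the glial factor Sox9 (1.45 ± 0.27) and Ptprz1 (0.68 ± 0.20). The adhesion protein Cdh2 (−1.56 ± 0.24) and the RNA-binding protein Msi1 (−0.73 ± 0.24) fell.

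Of 14 further astrocyte genes tested, 7 rose in EGF against PDGF and the rest did not pass (median 1.01). The gap junction protein Gja1 had a mean signal of 9171 in EGF and 465 in PDGF (4.28 ± 0.29, adjusted p = 4.03e-08), and the cotransporter Slc4a4 7252 in EGF and 799 in PDGF (3.13 ± 0.22). In PDGF+NT-3 against PDGF, 2 rose (Aldoc 0.75 ± 0.16 and Cst3 0.72 ± 0.24) and 3 fell (median 0.17). Those that fell were Gpr37l1 (−1.86 ± 0.56), Dio2 (−1.54 ± 0.35) and Acsl6 (−1.02 ± 0.34). Among the partners of single markers, 4 of 8 other genes of glutamate and glutamine handling (2 of which, Slc1a2 and Slc1a3, also stand in the lists above) rose in EGF and 1, the glutamine transporter Slc38a2, fell (−1.10 ± 0.15). Of 8 genes for relatives and receptors of pleiotrophin, the receptor Ptprz1 was −0.33 ± 0.16 in EGF minus PDGF and did not pass (adjusted p = 0.272), and the proteoglycan Sdc3 fell (−0.79 ± 0.13). Of 10 other filament and lamina genes, Ina and Nefl, both neuronal filaments, fell in EGF against PDGF (−1.30 ± 0.28 and −0.89 ± 0.23). In PDGF+NT-3 against PDGF 5 of these 10 fell, where 12.4% of all genes did: the neuronal filaments Prph (−1.65 ± 0.43) and Ina (−1.09 ± 0.34), the lamins Lmna (−1.20 ± 0.33) and Lmnb1 (−0.81 ± 0.23), and the filament linker Plec (−0.94 ± 0.32). The fatty acid binding protein Fabp5 rose (0.41 ± 0.11) and Fabp3 fell (−1.08 ± 0.26) in EGF against PDGF.

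Of 12 regulators of glial fate, 5 rose and 1 fell in EGF against PDGF (median 0.16), where 5.61% of all genes rose and 5.55% fell. The BMP receptor Bmpr1b rose most (3.14 ± 0.39, adjusted p = 3.54e-05), the nuclear factor I genes Nfia (1.19 ± 0.35), Nfib (0.63 ± 0.18) and Nfix (0.99 ± 0.18) rose together with the cytokine receptor subunit Il6st (0.95 ± 0.24), and Stat3 fell (−0.62 ± 0.15). In PDGF+NT-3 against PDGF, Sox9 and Bmpr1b (1.60 ± 0.48) rose, and Nfix (−0.91 ± 0.21) and the BMP effector Smad1 (−0.98 ± 0.14) fell. Of 9 other folate enzymes, Mthfd1 and Atic rose in EGF (adjusted p = 3.60e-05 and 0.0248), and Mthfd1l and Shmt2 rose in PDGF+NT-3 (0.87 ± 0.20 and 0.52 ± 0.17). Of 4 other S100 genes, S100a1 (−1.45 ± 0.36) and S100a13 (−1.02 ± 0.34) fell in PDGF+NT-3 against PDGF. Of 9 other genes of lipid transport, the lipase Lpl rose in EGF (0.74 ± 0.22), and Lpl (−1.11 ± 0.27) and the cholesterol exporters Abca1 (−1.27 ± 0.21) and Abcg1 (−1.07 ± 0.25) fell in PDGF+NT-3 against PDGF.

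Markers of other cell types moved with the conditions too. Summed signals of 11 oligodendrocyte progenitor genes were 65803 to 86423 in EGF, 173470 to 209330 in PDGF+NT-3 and 122020 to 159350 in PDGF. A large part of each sum is the brightest gene, Olig1 (means 42887 in EGF, 104350 in PDGF+NT-3 and 60702 in PDGF). Of these 11 genes 8 fell in EGF against PDGF (5.55% of all genes), among them Pdgfra (−3.44 ± 0.15) and Sox10 (−2.96 ± 0.22). In PDGF+NT-3 against PDGF 3 rose and 1 fell, where 6.55% of all genes rose and 12.4% fell. Sums of 13 neuron genes were 35920 to 69132 in EGF, 47128 to 88371 in PDGF+NT-3 and 89613 to 133290 in PDGF. Against PDGF, 7 of 13 were lower in EGF (5.55% of all genes) and 6 of 13 in PDGF+NT-3 (12.4% of all genes). Sums of 7 myelin genes were 47542 to 77398 in EGF, 14011 to 19056 in PDGF+NT-3 and 42932 to 77087 in PDGF. Mbp and Cnp were the brightest of the 7 in EGF (means 25552 and 22739) and PDGF (21697 and 30621). In EGF against PDGF, Mobp rose (3.36 ± 0.40) and Ugt8a fell (−1.64 ± 0.22). Against PDGF, 5 of the 7 fell in PDGF+NT-3, where 12.4% of all genes fell, and 0 rose. Of 10 genes each for microglia and for vascular and mesenchymal cells, only 4 and 3 were bright enough to be tested. The 4 microglial genes summed to 1953 to 2925 in EGF, 1939 to 2599 in PDGF+NT-3 and 2434 to 3891 in PDGF. The 3 vascular and mesenchymal genes summed to 6993 to 12370 in EGF, 865 to 2652 in PDGF+NT-3 and 2635 to 5486 in PDGF. Only 1 of them, the smooth muscle actin Acta2, rose in EGF against PDGF (1.99 ± 0.28). Its mean in EGF was 7650, against 1194 for Kdr and 715 for Col1a2, which did not pass (−0.06 and −0.31). In PDGF+NT-3 against PDGF, Kdr (−1.54 ± 0.32) and Col1a2 (−1.79 ± 0.53) fell. Of 8 ependymal genes 1, the ciliary factor Foxj1, fell in PDGF+NT-3 against PDGF (−1.54 ± 0.47), a share near the 12.4% of all genes that fell. Of 13 cell cycle genes, 4 rose in EGF against PDGF, where 5.61% of all genes rose, and 7 rose in PDGF+NT-3 against PDGF, where 6.55% of all genes rose. The other cell cycle genes did not pass. The part of these cell types in the marker values was not tested.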

How the data were processed

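The deposited files give the intensity of each probe set on a linear scale. Per the submitters' processing notes the authors used MAS5 (version: not given in the sources used here). A 2% trimmed mean of every array was the same, so the authors' scaling was kept. Gene symbols came from the platform tables: 1 symbol stands beside 35041 probe sets, of which 34837 were found in RefSeq on GRCm38.p6. No value column was left unmapped.

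Probe sets under the array median on more than 12 of 15 arrays were left out. Signals were taken as log2 of signal plus the 10th percentile of the chip (52.0 for MOE430A and 115 for MOE430B), so a fold change understates the change of dim probe sets. The probe sets of both chips entered 1 fit of limma 3.58.1 (R 4.3.3, files read with data.table, version 1.17.8) by lmFit and eBayes, with an intensity trend and 12 residual degrees of freedom. Tests are two-sided, with Benjamini-Hochberg adjustment over 29796 probe sets and a threshold of 0.05. Intervals are 95%. Samples were grouped by their titles and not paired.

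A gene is counted by 1 tested probe set, from MOE430A where it has a tested one there, with the highest mean log2 signal. All probe sets of the 10 genes are named, and of list genes those given as examples. The members and the 17 gene lists were chosen with earlier results of these data known. Alternatives changed the pseudocount, filter, scaling, probe set rule, samples fitted, weights, trend and blocks, or left out a sample.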

Additional observations from a re-analysis of the deposited data

Results flagged for a closer look

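In the EGF and PDGF conditions, the highest or lowest sample was set against the other 5 for each of the 21 probe sets. Of these 42 sets of 6 samples, 4 stood apart by Dixon's criterion (a gap over 0.625 of the range of log2 signal). The signals given below are linear. Chance alone marks about 1 in 20 such sets. Vim 1438118_x_at was 13179 in EGF replicate 1, the lowest of 6 that otherwise began at 17457. Ptn 1448254_at was 10603 in PDGF replicate 4, with the next sample at 12752. Gfap 1426508_at, which was too dim to be tested, was 87.2 in PDGF replicate 5, with the next at 335. S100b 1419383_at was 137 in PDGF replicate 3, with the next at 621. These samples lay in different replicates, and no cause was tested.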

How the results depend on the processing

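Over 1391 recomputed values of single marker probe sets, 1332 kept their direction and their side of the threshold, 15 lost and 30 gained a call, and 14 changed sign, all without a call. EGF against PDGF kept its calls for Aldh1l1, Prom1, Apoe, Glul, Ptn and Nes (chosen probe sets) in all alternatives run, and S100b in all that tested it. With the filter at the 75th percentile S100b was not tested, and 0 probe sets and 0 genes were lower. PDGF+NT-3 against PDGF had 1 gene higher with quantile normalization, 0 genes lower with the mean of a gene's probe sets, and 4 probe sets and 4 genes lower with each chip adjusted alone. With array weights it called 3068 probe sets (1591 genes) in place of 5116 (2625), and EGF against PDGF+NT-3 called 3344 (1795) in place of 5332 (2803). Without 1 sample, genes higher were 6 to 7 and lower 1 to 1 in EGF against PDGF, 1 to 2 and 2 to 3 in PDGF+NT-3 against PDGF (1 without PDGF+NT-3 replicate 1 or 3), and 5 to 6 and 1 to 1 in EGF against PDGF+NT-3. No other scaling moved the median of all probe sets by over 0.1.

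Deviations of same-numbered samples correlated weakly, at 0.02 to 0.08 for EGF and PDGF and at −0.03 to 0.03 for pairs with PDGF+NT-3. For EGF and PDGF the same-numbered value was above the highest with another number (0.005 to 0.030) in every replicate except replicate 5. There it was 0.018 against 0.042. The labels do not say what a shared number means, and samples were not paired in the main fit. With the replicate number as a block, EGF against PDGF called 8 marker probe sets higher, EGF against PDGF+NT-3 called 7 in place of 5 (adding Nes 1418289_at and Ptn 1416211_a_at, at 0.95 and 0.57), and Nes 1418289_at (−0.19) and Ptn 1443173_at (0.081) changed sign in PDGF+NT-3 against PDGF. Further sign changes, all uncalled, were Glul 1426235_a_at in PDGF+NT-3 against PDGF (0.12 with median centring, 0.13 with quantile normalization, 0.021 with array weights, 0.039, 0.0177 and 0.0266 without PDGF replicate 2, 3 or 6; −0.2979 to 0.2781 without any 1 sample, the highest without PDGF+NT-3 replicate 2), Fabp7 in EGF against PDGF+NT-3 (0.18 with quantile normalization), Ptn 1443173_at in PDGF+NT-3 against PDGF (0.0061 without PDGF+NT-3 replicate 2; range −0.232 to 0.0061), S100b 1419383_at in EGF against PDGF+NT-3 (−0.0358 and −0.0011 without PDGF+NT-3 replicate 1 and 3; range −0.0358 to 1.1169) and Vim 1450641_at in EGF against PDGF (−0.0235 without PDGF replicate 4; range −0.0235 to 0.1444). The causes were not tested. Dim signals limit Gfap, the second S100b probe set, the chosen S100b probe set outside PDGF, and Aldh1l1 outside EGF. All values with NT-3 are limited by 3 samples.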
